A study of Mus musculus with 3 samples.

Results

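Among 38722 cells from arthritic mouse knee synovium, 706 carried fibromodulin (Fmod) together with genes of tendon, cartilage or mineralised matrix and are described here as the Fmod stroma, a candidate tenocyte and fibrocartilage-like stroma. A cell was a member when it held at least 2 unique molecular identifiers (UMIs, counted mRNA molecules) of Fmod and at least 2 UMIs over Acan, Tnmd, Scx, Thbs4, Mkx and Ibsp. Col1a1 had to make up at least 2% of its UMIs, Prg4 less than 1%, and Saa3 plus Hp less than 2%. At most 2 of the division genes Mki67, Top2a, Ube2c, Cenpf and Birc5 could be detected, and the endothelial gene Cdh5 had to be at 0 UMIs. Members were thus chosen by measured values, so the levels of these genes are given as a description with no test. The members numbered 160, 203 and 343 in replicates 1, 2 and 3, which was 1.34%, 1.76% and 2.25% of the kept cells (exact binomial 95% intervals 1.14% to 1.57%, 1.52% to 2.01% and 2.02% to 2.5%, which cover counting error only). The mean share was 1.78% ± 0.455 (SD, n = 3 libraries).

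The 3 libraries were replicates of 1 group. Each pooled knee synovium from 2 wild-type female C57BL/6 mice, used at 8 weeks of age, with arthritis induced by collagen and antibody (C&AIA). The mice were immunised with 100 µg type II collagen on day 0, given 1 mg of monoclonal antibodies to type II collagen on day 21 and lipopolysaccharide on day 22, and sampled while disease was in its effector phase. All 6 mice were arthritic and no group without arthritis was included, so no value here measures an effect of the disease. Cells were freed with collagenase and DNase.

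Fibromodulin is a small leucine-rich proteoglycan that binds collagen fibrils and takes part in their assembly in tendon. Tenocytes, the fibroblasts of tendon, are known for the transcription factors scleraxis (Scx) and mohawk (Mkx), the membrane glycoprotein tenomodulin (Tnmd) and the matrix protein thrombospondin 4 (Thbs4). Where tendon meets bone or is compressed it forms fibrocartilage, which holds aggrecan (Acan), the large proteoglycan of cartilage, and its mineralised layer holds bone sialoprotein (Ibsp).

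The start-site regions of Fmod, Tnmd and Ibsp are shown because Fmod defines all members, while Tnmd and Ibsp were each held by only some of them. RefSeq start-site windows (250 bases before to 50 after the start, build GRCm38.p6) matched 5 of the 7 genes. Capitals mark 4 motifs searched on both strands: CATCTG, an E-box, in 17.2% of 32851 such windows, TGTGGT, a core of RUNX sites, in 16.8%, CCAAT in 37.4% and TATAAA in 13.6%. CCAAT and TATAAA were added after the sequences had been seen. The Fmod window held 1 CATCTG and 1 CCAAT, the Ibsp window 1 CCAAT and 1 TATAAA, both on the reverse strand, and the Tnmd window none of the 4. TGTGGT was in none of the 5 matched windows. A match is a description of letters, not of a bound site.
Fmod (chr1:134037004-134037303, plus strand): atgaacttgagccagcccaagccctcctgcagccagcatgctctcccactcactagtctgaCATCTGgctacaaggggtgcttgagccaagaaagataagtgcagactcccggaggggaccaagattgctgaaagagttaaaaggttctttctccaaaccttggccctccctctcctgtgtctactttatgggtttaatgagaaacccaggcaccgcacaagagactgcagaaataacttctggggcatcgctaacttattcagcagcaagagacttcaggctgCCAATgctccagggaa
Tnmd (chrX:133850758-133851057, plus strand): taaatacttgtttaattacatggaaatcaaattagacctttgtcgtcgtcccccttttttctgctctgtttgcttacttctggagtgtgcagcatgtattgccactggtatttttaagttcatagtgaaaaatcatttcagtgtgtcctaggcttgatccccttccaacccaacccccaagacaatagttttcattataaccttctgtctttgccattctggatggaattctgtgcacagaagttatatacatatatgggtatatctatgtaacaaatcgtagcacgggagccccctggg
Ibsp (chr5:104299037-104299336, plus strand): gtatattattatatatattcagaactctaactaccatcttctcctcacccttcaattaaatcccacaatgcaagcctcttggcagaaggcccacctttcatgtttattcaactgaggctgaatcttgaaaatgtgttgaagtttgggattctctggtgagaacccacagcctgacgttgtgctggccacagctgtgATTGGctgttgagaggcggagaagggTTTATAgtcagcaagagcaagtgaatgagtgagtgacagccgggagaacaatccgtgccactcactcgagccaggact

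The kept cells held 101344595, 99713020 and 116090441 UMIs in replicates 1, 2 and 3, with median depths of 4917, 4742 and 5282 UMIs per cell. Members were deeper, with medians of 17626, 17285 and 12203 UMIs. A doublet score of 0.2 or more was found in 37 members (5.24%) and in 4.77% of kept cells. At least 1 UMI of Ptprc, the leukocyte gene CD45, was found in 271 members (38.4%). Summed Ptprc in the members was 39.3, 44.3 and 40.9 CPM (UMI sums scaled to a common total) in the 3 libraries, against 495, 559 and 528 CPM in 10987 leukocyte-type cells. Barcode names are running numbers that recur between libraries (2602 to 2866 names per pair of libraries), and no member's name occurred in a second member.

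The limits on cells narrowed 38722 cells to 5547 by the Col1a1 share and to 1068 by Fmod. The 6-gene sum left 1014, the Prg4 share 986, the Saa3 and Hp share 917, the division genes 818 and Cdh5 706. With exactly 2 Fmod UMIs, 159 members were just inside, and 272 cells with 1 Fmod UMI that met every other limit were just outside. Comp stood at 1498 CPM in the former and 1373 CPM in the latter. At the 6-gene limit 22 members held exactly 2 UMIs and 16 cells with 1 UMI were left out.

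Acan was the most often detected of the 6 genes, with a UMI in 654 members (92.6%). Thbs4 was detected in 552 members (78.2%), Scx in 410 (58.1%), Tnmd in 167 (23.7%), Ibsp in 68 (9.63%) and Mkx in 66 (9.35%). In leukocyte-type cells, which should lack these genes, the shares were 5.93% for Acan, 10.3% for Thbs4, 1.57% for Scx, 0.583% for Tnmd, 1.76% for Ibsp and 0.319% for Mkx, at a median of 5516 UMIs against 14756 in the members. With every cell thinned to 1000 UMIs, no member being shallower, Acan was detected in 47.0% of members and 0.550% of leukocyte-type cells, and Tnmd in 6.09% and 0.250% (2000 leukocyte-type cells drawn at random). These shares follow in part from the rule, which asked for UMIs of these 6 genes.

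Tnmd was held by few cells. Summed over each library it stood at 67.6, 82.5 and 60.8 CPM in the members (70.3 ± 11.1, SD, n = 3). The members held 201, 318 and 291 of the 637, 1053 and 779 Tnmd UMIs of all kept cells in replicates 1, 2 and 3. Scx stood at 102, 104 and 133 CPM, Thbs4 at 932, 949 and 1035 CPM and Acan at 809, 806 and 820.1 CPM, so these genes varied little between the libraries. Ibsp did not: it stood at 918, 34.0 and 427 CPM, lowest in replicate 2. Of the 2733 Ibsp UMIs in the members of replicate 1, 2331 were in a single cell.

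The rule asked only for a sum over the 6 genes, and many members held genes of both pairs. Acan, Scx and Thbs4 were all detected in 323 members (45.8%), and 443 members (62.7%) held at least 1 UMI of both pairs, Acan or Ibsp and Tnmd or Scx. Of the 167 members with Tnmd, 158 also held Acan. Acan without Tnmd or Scx was found in 211 members (29.9%), and Tnmd or Scx without Acan and Ibsp in 30 (4.25%). When each member was placed on the side of the pair with more UMIs, 592 fell on the Acan/Ibsp side (141, 174 and 277 in replicates 1, 2 and 3), 75 on the Tnmd/Scx side (10, 21 and 44) and 39 were tied. The Acan/Ibsp side held 88.1%, 85.7% and 80.8% of members and the Tnmd/Scx side 6.25%, 10.3% and 12.8%. Of the 75 cells on the Tnmd/Scx side, 45 (60.0%) also held Acan or Ibsp, and in 61 members the pairs differed by a single UMI. The sides are therefore a division by UMI counts, with these 61 and the 39 tied members at or near the line. Whether the members form a range or separate classes was not tested.

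**Figure D1:**
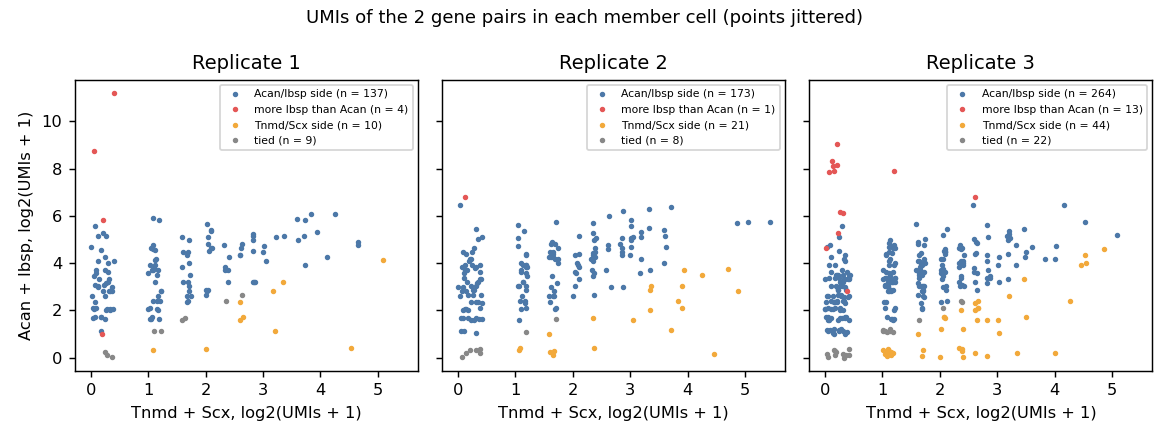
UMIs of Acan plus Ibsp (vertical) against Tnmd plus Scx (horizontal), both as log2(UMIs + 1), for each member cell in replicates 1, 2 and 3, coloured by side; points are jittered. Most cells lie on the Acan/Ibsp side, but of the 16 members with 20 or more UMIs of Tnmd plus Scx 7 lie there and 9 on the Tnmd/Scx side. The highest points are cells with more Ibsp than Acan, at low Tnmd and Scx, but others of these cells lie lower.

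The first question was how the Fmod stroma differed from the sublining-type fibroblasts beside it. These were 333 cells (60, 99 and 174) that met the same limits but held at most 1 UMI of Fmod and of the 6 genes, and at least 2 UMIs of Thy1 plus Cd34. In the Fmod stroma 8 of 19 genes of tenocyte matrix and 8 of 17 cartilage genes were higher, and 13 of 31 cytokine and chemokine genes and 4 of 25 matrix proteases and inhibitors were lower. UMIs were summed per library and group and tested with edgeR's quasi-likelihood test, with the library as a block; calls needed an adjusted p (Benjamini-Hochberg) below 0.05 and a log2 fold change of 1 or more in either direction. The test covered 10231 genes and called 293 (2.86%). In the Fmod stroma 117 (1.14%) were higher and 176 (1.72%) lower. The genes used to choose the cells are left out of all counts. The median depth was 9743 UMIs in the Thy1/Cd34 stroma against 14756 in the Fmod stroma. With cells thinned to 1000 UMIs and equal cell numbers, 60 of 1202 genes were called, 41 of them among the 293 and none in the opposite direction. DESeq2 called 149.

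Of 19 tested genes of tenocyte matrix, 8 were higher and 1 lower. Col11a1, a fibrillar collagen chain of cartilage and young tendon, stood at 303, 316 and 254 CPM in the Fmod stroma and 48.4, 58.8 and 30.9 CPM in the Thy1/Cd34 stroma of replicates 1, 2 and 3. The groups did not overlap, and the log2 fold change was 2.73 ± 0.12 (SE; edgeR, Benjamini-Hochberg adjusted p = 6.73e-15). Cilp, the cartilage intermediate layer protein, stood at 99.5, 110.2 and 159.6 CPM against 66.1, 33.6 and 40.4 CPM, a log2 fold change of 1.57 ± 0.17. Tenascin C (Tnc), a matrix glycoprotein of tendon and wounds, stood at 453, 414 and 342 CPM against 198, 253 and 136 CPM, a log2 fold change of 1.10 ± 0.10. Keratocan (Kera), a small leucine-rich proteoglycan, stood at 20.2, 14.8 and 37.4 CPM against 0, 2.29 and 8.91 CPM, a log2 fold change of 2.49 ± 0.31. In Cilp, Tnc and Kera every Fmod stroma value was above every Thy1/Cd34 value, although Tnc lost its call without replicate 3. Over all genes tested 18.8% had groups that did not overlap.

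Comp, the cartilage oligomeric matrix protein of tendon and cartilage, was near the limit of a call. It stood at 2022, 1644 and 2154 CPM against 1025, 788 and 1126 CPM, a log2 fold change of 1.02 ± 0.07, and fell to 0.98, under the limit of 1, without the cells that held more Ibsp than Acan, and to 0.99 without replicate 2. Fibin, Col12a1 and 1500015O10Rik were also higher, with log2 fold changes of 1.73, 1.19 and 1.08. Tppp3, a marker of tendon sheath cells, was lower, at 144, 107 and 148 CPM against 308, 227 and 332 CPM (log2 fold change -1.09 ± 0.09). Col14a1, a fibril-associated collagen, overlapped between the groups (396 ± 29.7 against 372 ± 75.3 CPM, SD, n = 3) and was not called. The median log2 fold change was 0.87 over the 19 genes and -0.01 over all genes tested. After thinning 7 of 15 tested genes were higher and 1 lower, and 5 of the 7 and the 1 were also called with all UMIs.

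Of 17 tested cartilage genes, 8 were higher and 1 lower, with a median log2 fold change of 0.84. DESeq2 called 5 of the 8, and not Col9a1, Col11a2 or Matn3. The 18 members with more Ibsp than Acan held 94.6% of the Col2a1, 78.7% of the Col11a2 and 51.7% of the Hapln1 UMIs of all members. Sox9, the transcription factor that drives cartilage formation, stood at 141, 119 and 102 CPM against 36.7, 53.4 and 48.7 CPM. Its groups did not overlap, and its log2 fold change was 1.33 ± 0.14 (edgeR, Benjamini-Hochberg adjusted p = 5.58e-08). Matrilin 4 (Matn4), a cartilage matrix adaptor, stood at 82.3, 87.7 and 109 CPM against 25, 6.87 and 35.1 CPM, a log2 fold change of 2.14 ± 0.20. Scrg1, a gene of cartilage-forming cells, stood at 23.2, 24.9 and 22.8 CPM against 4.40, 6.10 and 4.75 CPM, a log2 fold change of 2.22 ± 0.28. Sox5, a partner of Sox9, was lower, at 30.6, 28.5 and 25.7 CPM against 60.2, 67.9 and 48.1 CPM (log2 fold change -1.02 ± 0.15). It was not called without replicate 2. After thinning 4 cartilage genes could be tested and 2 were higher, Matn4 and Pth1r, of which Matn4 was also called with all UMIs.

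Col2a1, the collagen of hyaline cartilage, came mostly from few cells. It stood at 117, 8.30 and 213 CPM in the Fmod stroma, lowest in replicate 2, against 4.40, 3.05 and 0.594 CPM in the Thy1/Cd34 stroma. Its log2 fold change was 5.77 ± 0.38 with all members and 1.63, no longer called (edgeR, Benjamini-Hochberg adjusted p = 0.0527), without the 18 cells that held more Ibsp than Acan. Alpl, the alkaline phosphatase of mineralising cells, stood at 43.7, 6.22 and 35.5 CPM against 1.47, 2.29 and 2.97 CPM. Its log2 fold change fell from 3.45 to 1.82 without those cells and was still called. Of 10 mineralising genes tested, Alpl was the one higher and Col22a1, a collagen of tissue junctions, the one lower.

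Among 9 small leucine-rich proteoglycans besides Fmod, 2 were higher: osteoglycin (Ogn), at 193, 186 and 196 CPM against 54.3, 124 and 74.3 CPM (log2 fold change 1.20 ± 0.14), and asporin (Aspn), which binds collagen, with a log2 fold change of 1.17 ± 0.12. Decorin (Dcn) and lumican (Lum), which are abundant in most fibroblasts, were not called. Of 34 genes of collagen fibril assembly, elastin (Eln) was higher (250.4 ± 40.5 against 121 ± 3.18 CPM, SD, n = 3) and 4 were lower. The lower genes were Tnxb, Col5a3, Adamts14 and Loxl2. Without replicate 1 the log2 fold change of Eln was 0.96 and it was not called. Tenascin X (Tnxb), which links collagen fibrils in loose connective tissue, stood at 4.71, 11.2 and 9.40 CPM against 71.9, 114 and 103 CPM, a log2 fold change of -3.45 ± 0.17 (edgeR, Benjamini-Hochberg adjusted p = 2.39e-14), and its groups did not overlap.

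Secreted regulators moved in both directions. Of 12 Wnt pathway genes, the inhibitor Sfrp1 was higher, at 589.8, 769.7 and 529 CPM against 313, 292 and 230.0 CPM (log2 fold change 1.22 ± 0.09). Sfrp4, Rspo3, Wisp2 and Sfrp2 were lower, and Sfrp4 stood at 10.4, 17.4 and 10.2 CPM against 60.2, 26.7 and 87.4 CPM (log2 fold change -2.14 ± 0.27). Of 23 genes of TGF-beta and BMP signalling, 3 were higher and none lower: the BMP antagonist Chrdl1 (25.9 ± 6.00 against 7.91 ± 1.21 CPM), the ligand Tgfb3 (91.1 ± 4.36 against 35.2 ± 7.31 CPM) and the latent TGF-beta binding protein Ltbp2 (235 ± 65.8 against 122 ± 41.6 CPM, all SD, n = 3). Igfbp3, which binds insulin-like growth factors, was higher with a log2 fold change of 1.86 ± 0.22. None of 7 hedgehog genes was called, although 3 had an unadjusted edgeR p under 0.05, and DESeq2 called none. Gas1, a hedgehog co-receptor, was called lower without replicate 2, with limits of 3 UMIs and after thinning.

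Of 17 genes tied to mechanical load and the contractile skeleton, 5 were higher and none lower: Itgbl1, Ctgf (now Ccn2), Tagln, Thbs1 and Acta2. Ctgf, a matricellular protein induced by load and TGF-beta, stood at 109, 59.1 and 150.4 CPM against 20.6, 32.0 and 43.4 CPM (log2 fold change 1.67 ± 0.17). Itgbl1, a secreted integrin-like protein, stood at 99.1, 90.2 and 126 CPM against 22.0, 25.9 and 48.1 CPM (log2 fold change 1.70 ± 0.14). Thinning left 3 genes of this list to test, and none was called. Acta2 is also a marker of pericytes and smooth muscle. Of 6 such markers tested, Acta2 and Cspg4 were higher and Rgs5, Notch3 and Des lower, and the 7 markers of the list summed to 132 to 247 CPM in the Fmod stroma and 111 to 319 CPM in the Thy1/Cd34 stroma, with none at 0 in the Fmod stroma. Their part in the result was not tested.

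Some inflammatory ligands were lower in the Fmod stroma. Of 31 cytokines, chemokines and related genes, 13 were lower and none higher, with a median log2 fold change of -0.63. DESeq2 called 8 of the 13, and edgeR called 10 without replicate 1 and 10 with no replicate block. Cxcl12, which holds leukocytes and progenitors in tissue, stood at 339, 316 and 292 CPM against 986, 899.6 and 765 CPM, a log2 fold change of -1.45 ± 0.08 (edgeR, Benjamini-Hochberg adjusted p = 1.82e-13). Cxcl5, a neutrophil attractant, stood at 131, 182 and 112 CPM against 415, 556 and 316 CPM, a log2 fold change of -1.56 ± 0.09. Cxcl1, another ligand of the same receptor, had a log2 fold change of -1.47 ± 0.14, and the B cell attractant Cxcl13 one of -2.36 ± 0.18. In these 4 genes no library of the Fmod stroma reached any library of the Thy1/Cd34 stroma. Il6 was called at -1.12 ± 0.32, but its groups overlapped (15.1, 4.93 and 5.22 against 33.8, 20.6 and 4.16 CPM), DESeq2 did not call it, and its log2 fold change was -1.06 without replicate 1 and -0.64 without replicate 2, again not called. Ccl2 and Tnfsf11, the ligand RANKL, were not called. After thinning 3 of 7 tested genes of the list were lower, Cxcl5, Cxcl12 and Cxcl14, all called with all UMIs too. The 6 neutrophil markers summed to 2661 to 5285 CPM in the Fmod stroma and 2204 to 5743 CPM in the Thy1/Cd34 stroma, and the 8 macrophage markers to 1037 to 1892 and 1033 to 1692 CPM, with none of the 14 at 0 in the Fmod stroma. The groups overlapped in both sums. They did not overlap in the sum of 4 T cell markers, at 9.07, 5.19 and 7.94 CPM against 14.7, 24.4 and 26.2 CPM. Of 2 T cell markers tested, Cd3d was called lower in the Fmod stroma, though not by DESeq2. The part of leukocyte genes in the result was not tested.

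Of 25 matrix proteases and inhibitors, 4 were lower and none higher. Stromelysin 1 (Mmp3) stood at 816, 497 and 587 CPM against 1615, 1425 and 1529 CPM, a log2 fold change of -1.27 ± 0.08. The aggrecanase Adamts5, which cleaves aggrecan, stood at 107, 76.2 and 76.6 CPM against 255, 236 and 218 CPM, a log2 fold change of -1.44 ± 0.10 (edgeR, Benjamini-Hochberg adjusted p = 2.73e-11). Adamts15 and Mmp16 were the other lower genes. Collagenase 3 (Mmp13) ranged widely, at 109.6, 295 and 202 CPM against 144, 27.5 and 165 CPM, and was not called (0.95 ± 0.30). It was called without replicate 1 (log2 fold change 1.42) and without replicate 3 (1.43). The inhibitor Timp1 was not called either (-0.19 ± 0.07).

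**Figure D2:**
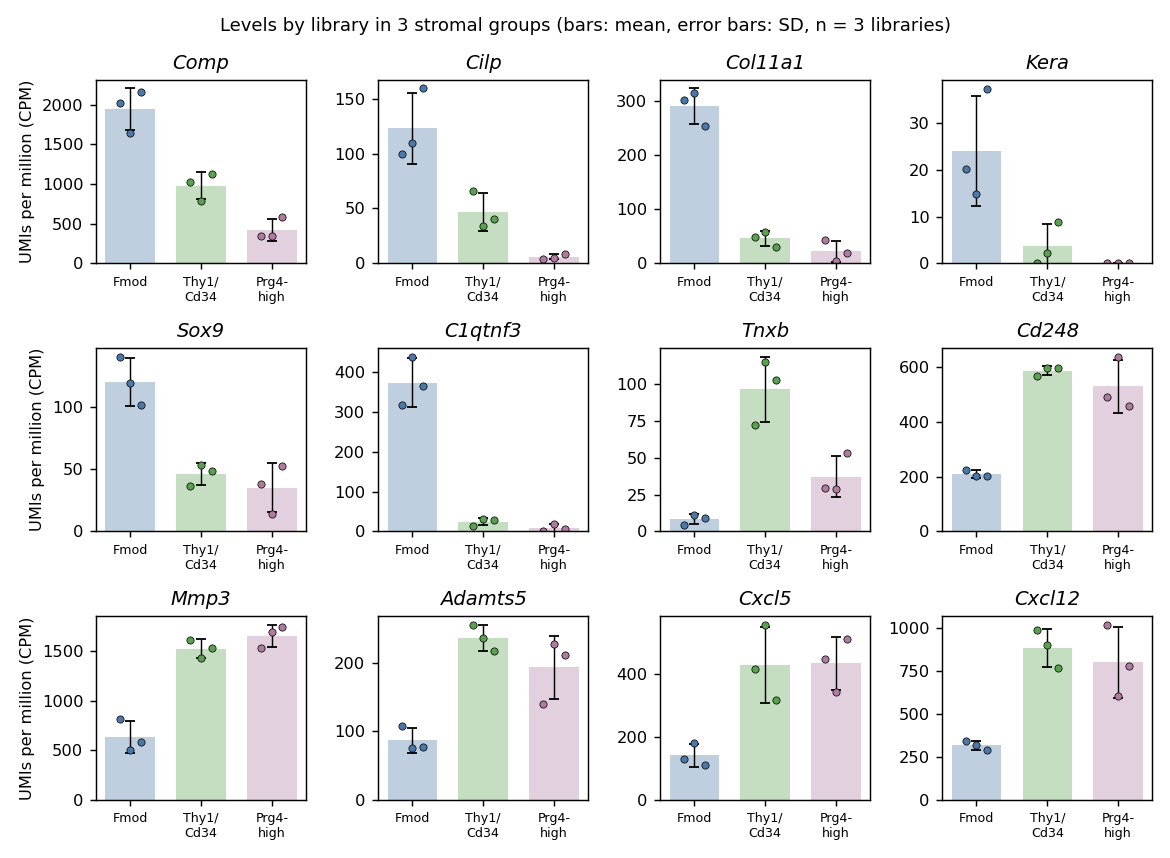
UMIs scaled to a common total (CPM) of 12 genes in the Fmod, Thy1/Cd34 and Prg4-high stroma; points are the 3 libraries, bars their mean and error bars the SD. In the Fmod stroma the tendon and cartilage genes Comp to C1qtnf3 are above both other groups, while Tnxb, Cd248, Mmp3, Adamts5, Cxcl5 and Cxcl12 are below both.

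Of the complement and C1q-related genes 23.1% were called and of the general fibroblast genes 26.3%, against 2.86% of all genes tested. An unadjusted edgeR p under 0.05 was found for 9 of 13 and 15 of 19, with median log2 fold changes of -0.56 and -0.43. C4b and Cfb were lower and C1qtnf3 higher among 13 complement and C1q-related genes. C1qtnf3, a secreted C1q-like protein also known as cartducin, stood at 316, 438 and 364 CPM against 14.7, 30.5 and 27.9 CPM, a log2 fold change of 3.91 ± 0.13 (edgeR, Benjamini-Hochberg adjusted p = 2.83e-18). Of 19 general fibroblast genes 4 were lower, namely Cd248, Ly6a, Clec3b and Ly6c1, and Hbegf was higher, with no call without replicate 3 (log2 fold change 0.85). All 4 lower genes are sublining markers, and Cd248 stood at 224, 203 and 201 CPM against 568, 595 and 596 CPM. The Thy1/Cd34 cells were chosen by sublining genes, so this direction is close to that choice. None of 22 cytokine receptors and none of 14 genes of the response to tissue dissociation was called, although 10 and 4 of them had an unadjusted edgeR p under 0.05, and DESeq2 called none of either list. Of 10 further tendon regulators 1, Mustn1, was lower. Its groups overlapped, and without replicate 1 or 2 it was not called (log2 fold changes -0.85 and -0.93). Of 19 genes of glycolysis and hypoxia Car12, a carbonic anhydrase, was higher and Adm, adrenomedullin, lower.

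Outside the lists, the 5 higher genes with the largest changes at 50 CPM or more were Aqp5 (3.6), Col8a1 (2.53), Cpxm2 (2.01), Fam101b (1.97) and Fxyd6 (1.84), given as log2 fold changes. The water channel Aqp5 stood at 58.1, 68.2 and 87.1 CPM against 4.40, 11.4 and 2.97 CPM. The 5 lower genes were Sned1 (-2.27), Itih5 (-2.12), Rarres2 (-1.95), Col4a1 (-1.83) and Cygb (-1.81). Col4a1, a basement membrane collagen, stood at 180.5, 170.4 and 157 CPM against 697, 593 and 569 CPM.

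**Figure D3:**
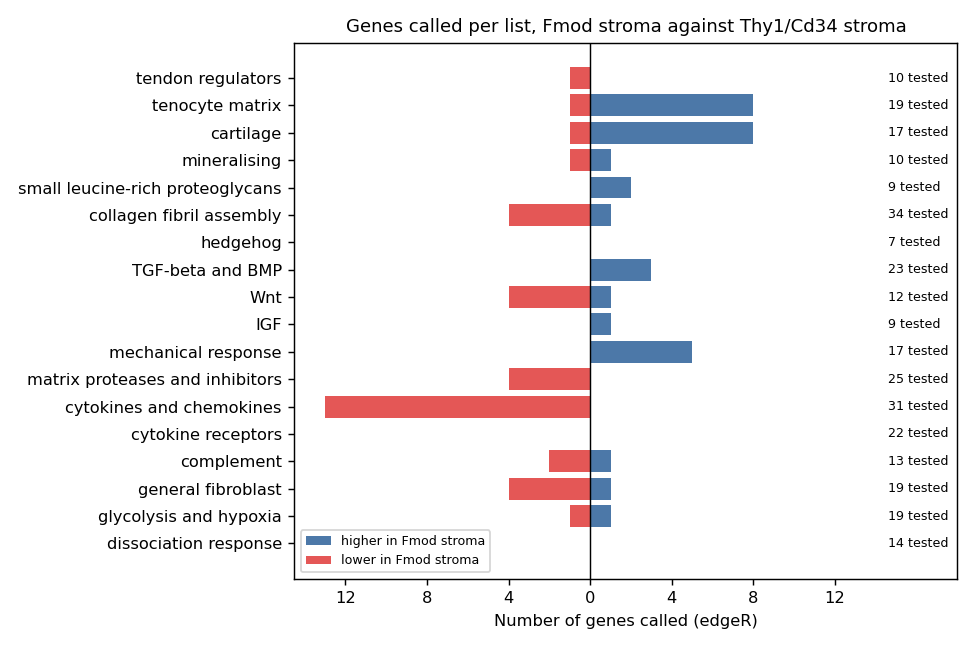
Number of genes called higher (right) or lower (left) in the Fmod stroma than in the Thy1/Cd34 stroma, for each of 18 gene lists, with the number tested beside each bar. Tenocyte matrix and cartilage have 8 higher genes each, and cytokines and chemokines 13 lower genes.

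The second comparison was with cells rich in lubricin (Prg4), the lubricant of the synovial lining. These 135 cells (23, 21 and 91) met the limits on Col1a1, Saa3 and Hp, division genes and Cdh5, held at least 1% Prg4 and at most 1 UMI of Fmod and of the 6 genes. In the Fmod stroma 12 of 19 tenocyte matrix genes were higher, while Mmp3, Adamts5, Timp1 and several chemokines were lower. Adamts5 was not called without replicate 2 or 3 (log2 fold changes -0.96 and -0.92), nor Timp1 without replicate 2 (-0.85). Timp1 also lost its call without cells with doublet scores of 0.2 or more, and with no filter on low counts. The test called 487 of 9556 genes (5.1%), with 285 higher (2.98%) and 202 lower (2.11%). With library totals in place of TMM scaling the split was 235 higher and 254 lower, and the median of all genes moved from 0.01 to -0.10. Median depth was 6750 UMIs in the Prg4-high cells, and with cells thinned to 1000 UMIs 40 of 287 tested genes were called, 25 of them among the 487. Both comparisons use the same Fmod stroma sums, so their values are set side by side only.

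Of 19 tenocyte matrix genes, 12 were higher than in the Prg4-high cells and none lower. Comp stood at 345, 342 and 582 CPM in the Prg4-high cells, with a log2 fold change of 2.30 ± 0.14. Cilp stood at 4.26, 4.75 and 8.39 CPM there, with a log2 fold change of 4.44 ± 0.31. Col14a1, which was not called against the Thy1/Cd34 stroma, stood at 179, 61.8 and 126 CPM, a log2 fold change of 1.81 ± 0.17 (edgeR, Benjamini-Hochberg adjusted p = 2.67e-08). Tnc, higher than in the Thy1/Cd34 stroma, overlapped here (315, 479.8 and 485 CPM) and was not called. Kera was at 0 UMIs in all Prg4-high cells against 296 UMIs in the members, which makes it at least 9.85-fold higher, with 3 counts over the group as the floor. Mfap4, a microfibril protein, stood at 4.26, 19.0 and 11.2 CPM against 508, 581 and 562 CPM in the Fmod stroma.

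Of 14 cartilage genes tested against the Prg4-high cells 5 were higher and 2 lower, and without the 18 Ibsp-rich cells 3 were higher. Sox9 was among the higher genes, with a log2 fold change of 1.59 ± 0.24. Alpl was at 0 UMIs in the Prg4-high cells and 324 in the members, at least 10.8-fold higher. Of the 324 UMIs 227 were in the 18 Ibsp-rich cells, and without those cells the bound was 3.3-fold. Alpl was then not called, nor with DESeq2, without replicate 3 or with limits of 3 UMIs. Of 27 cytokine and chemokine genes 8 were lower and 1, Il33, higher. Cxcl1 had a log2 fold change of -1.76 ± 0.21, Cxcl5 -1.59 ± 0.17 and Cxcl12 -1.22 ± 0.13. Mmp3 stood at 1532, 1691 and 1740.4 CPM in the Prg4-high cells, a log2 fold change of -1.31 ± 0.13. Spp1, osteopontin, stood at 1277, 1900.4 and 1342 CPM against 372, 313 and 421 CPM in the Fmod stroma, a log2 fold change of -1.91 ± 0.15. The 5 osteoclast markers summed to 234, 323 and 287 CPM in the Prg4-high cells and 116, 103 and 122 CPM in the Fmod stroma. Of 2 tested, Acp5 was called lower in the Fmod stroma. The 8 macrophage markers overlapped, at 941 to 1815 CPM and 1037 to 1892 CPM. Their part in the result was not tested. Col22a1, Nos2 and C1qtnf7 were the lower genes with the largest changes at 50 CPM or more, with log2 fold changes of -3.43, -3.25 and -3.18. Mmp13, Ccl2 and Il6 were not called.

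The members were then compared among themselves, the Acan/Ibsp side against the Tnmd/Scx side. On the Acan/Ibsp side 4 of 16 cartilage genes were higher and 1 lower, none of them called without the Ibsp-rich cells. Elastin, matrix Gla protein and osteoglycin were higher on the Tnmd/Scx side. These differences rest on 2 libraries, because replicate 1 had 10 cells on the Tnmd/Scx side and a sum had to hold at least 20. In replicates 2 and 3 the test called 53 of 9880 genes (0.536%). On the Acan/Ibsp side 24 (0.243%) were higher and 29 (0.294%) lower. The count fell to 1 without the library block, to 8 with DESeq2 and to 8 of 9263 (0.0864%; 5 higher, 0.054%, and 3 lower, 0.0324%) when the 10 cells of replicate 1 were added. The values below are therefore those of 2 libraries that other fits mostly did not call.

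Sox9 stood at 128 and 113 CPM on the Acan/Ibsp side of replicates 2 and 3 and 44.6 and 59.3 CPM on the Tnmd/Scx side, a log2 fold change of 1.13 ± 0.24 (edgeR, Benjamini-Hochberg adjusted p = 0.00456). With replicate 1, where the sides stood at 139 and 134 CPM, it was not called. Sfrp1 stood at 806 and 586 CPM against 360.2 and 281 CPM, a log2 fold change of 1.09 ± 0.14, and kept its call with replicate 1 (1.20 ± 0.14). Col2a1 stood at 9.30 and 257 CPM against 0 and 9.12 CPM and Alpl was at 194 against 0 UMIs, at least 8.51-fold higher. The Ibsp-rich cells in this fit were 1 in replicate 2 and 13 in replicate 3. Without them Alpl was at 68 against 0 UMIs, at least 3.07-fold higher, and not called. Of 16 cartilage genes 4 were higher and 1, Matn3, lower. Without the Ibsp-rich cells no cartilage gene was called, and 27 genes were called in all.

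On the Tnmd/Scx side Eln stood at 832 and 324 CPM in replicates 2 and 3 against 207 and 188 CPM on the Acan/Ibsp side, a log2 fold change of -1.42 ± 0.17. In replicate 1 it went the other way, at 51.5 against 313 CPM. Matrix Gla protein (Mgp), an inhibitor of calcification, stood at 5432 and 7811 CPM against 2273 and 4142 CPM, a log2 fold change of -1.10 ± 0.09, and Ogn had one of -1.03 ± 0.17. Of 6 listed neutrophil markers none was called by edgeR or DESeq2, although 5 had an unadjusted edgeR p under 0.05. The granule genes Ltf, Camp, Ngp, Cd177, Lcn2 and Chil1, chosen after their values were seen, were called on this side. The groups overlapped in 5 of these 6, and in replicate 3 Camp and Ngp were lower there. Over all genes tested between the sides 35.3% had groups that did not overlap. The 6 listed markers, none at 0, summed to 2540, 10268 and 3175 CPM on the Tnmd/Scx side of replicates 1, 2 and 3 and to 3505, 4755 and 2543 CPM on the Acan/Ibsp side, so replicate 2 stood apart. Their part in the result was not tested. In replicate 1 the 6 sublining markers, none at 0, summed to 2978 CPM on the Tnmd/Scx side against 874 CPM on the other, and Thy1 stood at 469 against 118 CPM.

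A split that all 3 libraries allowed was tried after the data had been seen: members without Tnmd (123, 146 and 270 cells) against members with at least 2 Tnmd UMIs (30, 42 and 49). The test called 30 of 8965 genes (0.335%). In the members without Tnmd 13 (0.145%) were higher and 17 (0.19%) lower. Of the 30 genes 10 were also called between the sides, 2 of them, Aqp5 and Mest, in the opposite direction. Median depth was close, at 17261, 18414 and 11881 UMIs without Tnmd and 18812, 18173 and 13222 UMIs with it. The tenocyte matrix genes Cilp2, Cilp and Kera were higher with Tnmd and Tppp3 was lower, of 20 tested. None of 5 tested sublining markers was called, but all 5 had an unadjusted edgeR p under 0.05, with a median log2 fold change of 0.46 towards the members without Tnmd. The 6 sublining markers, none at 0, summed to 1086, 883 and 1142 CPM without Tnmd and 998, 515 and 667 CPM with it, and their part in the result was not tested. Cilp2 stood at 8.60, 27.5 and 40.4 CPM with Tnmd and 1.77, 6.54 and 3.24 CPM without, a log2 fold change, members without over members with Tnmd, of -2.73 ± 0.38 (edgeR, Benjamini-Hochberg adjusted p = 6.60e-04). Cilp stood at 148, 212 and 262 CPM with Tnmd and 87.0, 79.5 and 142 CPM without (-1.01 ± 0.13).

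Eln stood at 860.5, 641 and 438 CPM with Tnmd and 147, 159 and 169.6 CPM without, a log2 fold change of -1.96 ± 0.15. Its groups did not overlap, as in 12.2% of all genes tested in this split. Mfap4 followed the same order, at 902, 1004 and 1180.5 CPM with Tnmd and 379.8, 461 and 423 CPM without (-1.27 ± 0.09). The Wnt antagonist Dkk2 stood at 20.7, 30.1 and 30.0 CPM with Tnmd and 2.22, 4.82 and 1.89 CPM without (-3.18 ± 0.37). Higher without Tnmd were Mmp13, at 117, 381 and 245 CPM against 82.6, 17.0 and 27.4 CPM (2.58 ± 0.39), and Sox5, at 31.9, 33.7 and 29.4 CPM against 12.0, 6.54 and 13.0 CPM (1.61 ± 0.30). Of 16 cartilage genes 3 were higher without Tnmd (Col2a1, Sox5 and Col11a2) and Scrg1 was higher with it, while Sox9 was not called (0.46 ± 0.18). Col2a1 and Col11a2 overlapped between the groups. All 18 cells with more Ibsp than Acan were among the members without Tnmd, with 94.6% of the Col2a1 and 78.7% of the Col11a2 UMIs of all members. The split was not fitted without these cells, and their part in the result was not tested. Comp stood at 2008 ± 331 CPM without and 1701 ± 226 CPM with Tnmd (SD, n = 3) and was not called.

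**Figure D4:**
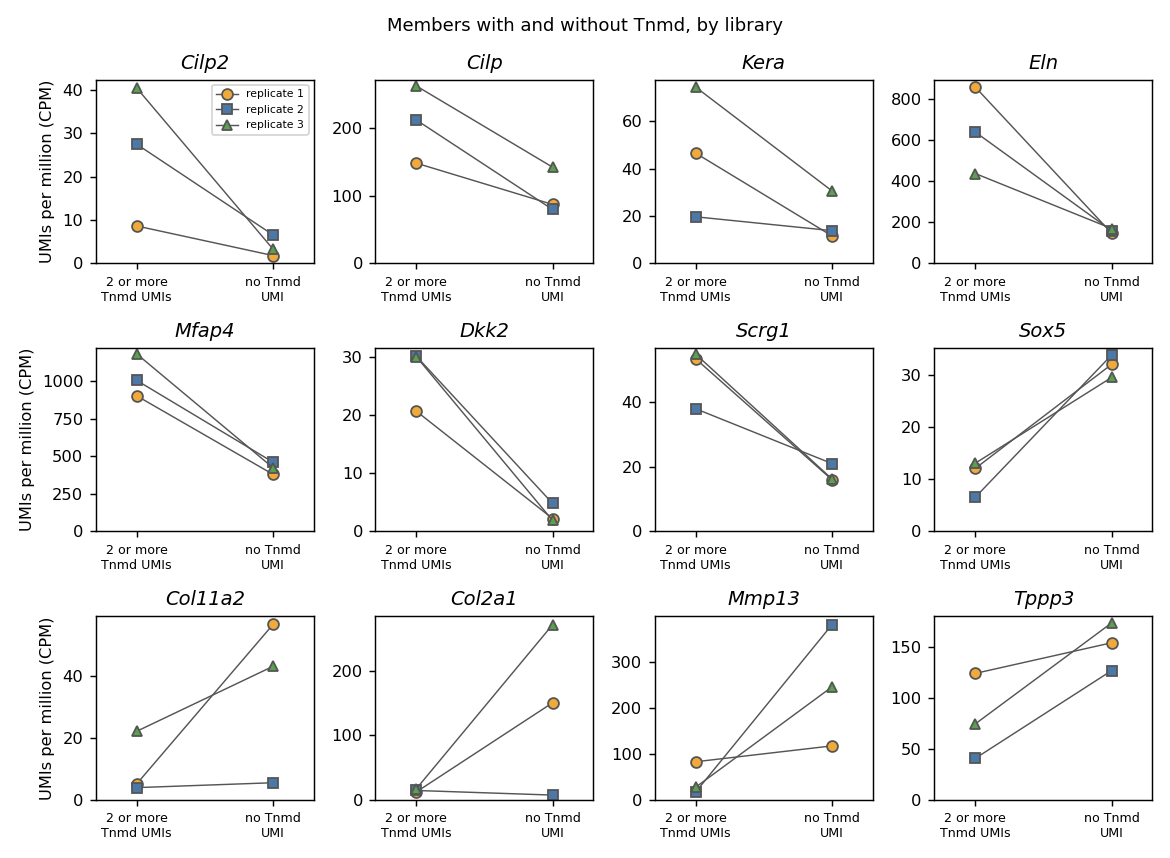
UMIs scaled to a common total (CPM) of 12 genes in members with at least 2 Tnmd UMIs (left) and with none (right), with a line for each of the 3 libraries. Cilp2, Cilp, Kera, Eln, Mfap4, Dkk2 and Scrg1 fall from left to right in all 3 libraries, Sox5, Col11a2, Mmp13 and Tppp3 rise, and Col2a1 rises in replicates 1 and 3 but not in replicate 2.

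On the Acan/Ibsp side 18 members held more Ibsp than Acan UMIs, 4 in replicate 1, 1 in replicate 2 and 13 in replicate 3. The 18 were called Ibsp-rich above by that order alone, and 1 of them in replicate 1 held 1 Ibsp and 0 Acan UMIs. Since they were too few for a test, they are given as summed values with exact Poisson 95% intervals that cover counting error only. They made up 2.55% of the members and held 97.2% of their Ibsp UMIs, of which 2331 of 4770 were in a single cell. They also held 94.6% of the Col2a1 UMIs, 78.7% of Col11a2, 70.1% of Alpl and 51.7% of Hapln1, the link protein of aggrecan. Their Col2a1 UMIs came from 8 of the 18 cells, and the cell of replicate 2 held none.

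In these 18 cells Col2a1 stood at 5280 CPM (4999 to 5572), against 7.04 CPM (5.48 to 8.91) in the 572 members with more Acan than Ibsp. Alpl stood at 905 CPM (791 to 1031) against 9.90 CPM (8.03 to 12.1). Pth1r, the receptor of parathyroid hormone, stood at 1192 CPM (1061 to 1335) against 61.4 CPM (56.6 to 66.6). Mmp13 stood at 1296 CPM (1159 to 1445) against 199 CPM (190 to 208). Panx3, a channel protein of hypertrophic cartilage and bone-forming cells, had 39 UMIs in these cells and 2 in the 572. Sp7, the osterix transcription factor, had 13 UMIs against 5, and Ihh, a signal of prehypertrophic cartilage, 6 against 0.

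Genes of mature bone and of hypertrophic cartilage were seen in part. Ifitm5, a gene of bone-forming cells, had 44 UMIs from 3 of the 18 cells, against 8 in the 572. Of the 44, 43 were in replicate 1 and 41 in a single cell. Dmp1, a matrix protein of osteocytes, had 7 UMIs, all in replicate 1, against 1 in the 572. Bglap, Mepe, Phospho1 and Col10a1 were at 0 UMIs in the 18 cells, which leaves up to 14.7 CPM within the 95% interval, and at 0 in the 572 as well. No value is given here for Bglap2, another gene of the mineralising list. It was called lower in the Fmod stroma than in the Prg4-high cells, but not when any 1 library was left out. Of the tendon genes Tnmd was at 0 UMIs in the 18 cells, and Scx had 6 UMIs from 2 cells, 23.9 CPM (8.78 to 52.1) against 106 CPM (99.4 to 112) in the 572. Thbs4 stood at 108 CPM (71.0 to 157) against 872 CPM (853 to 890). Fmod itself stood at 1232 CPM (1099 to 1378) against 602 CPM (587 to 618).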

How the data were processed

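The deposited files hold UMI counts per gene and cell for each library, made by the authors with PISA 1.0 per the file headers; Seurat 3.0.2, R 3.6 and the build GRCm39 (mm39) are named in the submitters' processing notes, and the aligner is not given in the sources used here. The files held 11939, 11602 and 15263 barcodes, against 11111, 10668 and 14363 cells stated in the labels. A barcode was kept if it had 200 or more genes and no more than 20% of its UMIs were mitochondrial; 82 were dropped. Counts were summed per library and group (at least 20 cells) and tested two-sided with edgeR 4.0.16 (quasi-likelihood, filterByExpr, TMM, library as a block, the sums of 1 library sharing its 2 mice), with Benjamini-Hochberg adjustment over all genes tested and DESeq2 1.42.0 as an alternative. Standard errors are the log2 fold change over the root of the F statistic. Doublets were scored with Scrublet (scanpy 1.11.5) and kept, except in 1 alternative. Scripts were tested on simulated data.

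The members, the comparison groups and the gene lists (450 genes, 447 found) were chosen with earlier results of these data known. The genes named are, per list and direction, the called gene with the largest change in all libraries at 10 CPM or more, the 5 largest outside the lists at 50 CPM or more (3 against the Prg4-high cells), and 24 genes named whatever their result. Other list members given as examples were chosen after their values were seen. Alternatives changed the scaling, tool, filter, block, depth, doublets, Ptprc-bearing cells, limits and libraries. The members with more Acan than Ibsp and those with more Ibsp were not tested against each other, since no library held 20 of the latter.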

Additional observations from a re-analysis of the deposited data

How the results depend on the processing

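The mean share of members was 2.64% with limits of 1 UMI and 1.09% without cells holding a Ptprc UMI, and ranged from 1.55% to 2.00% when each library was left out. Between the sides the 53 calls became 8 with DESeq2, 1 with no replicate block, 6 of 425 genes when thinned to 1000 UMIs, 8 with the 10 cells of replicate 1, 27 without the Ibsp-rich cells and 30 with the split on Tnmd, of which 10 were among the 53 and 2 of these in the opposite direction. With replicate 1 the log2 fold change of Thy1 was -0.026, and with the split on Tnmd those of Fabp5 and Pamr1 were -0.89 and 0.40; the cause was not tested. The sides could not be fitted without doublets, without Ptprc-bearing cells, with limits of 3 UMIs, with cells of 1 pair only, with Acan against Tnmd alone or with a library left out, since fewer than 2 libraries held 20 cells. Against the Thy1/Cd34 stroma the 293 calls became 149 with DESeq2 and 60 when thinned, 209 with no replicate block, and 262 to 329 when each library was left out. Against the Prg4-high cells the 487 calls became 298 with DESeq2 and 40 when thinned, 493 with no replicate block, and 338 to 533 when each library was left out; without Ptprc-bearing cells no fit could be made. Thinning tests fewer cells, molecules and genes. Over the named genes and alternatives, 530 of 563 values against the Thy1/Cd34 stroma kept their side of the threshold and, where called, their direction. The count was 235 of 241 against the Prg4-high cells and 191 of 282 between the sides. Genes called in neither fit counted as kept whatever their direction, and genes no longer tested were left out. The named genes include the largest calls of the main fit, so these counts are not independent of it. The libraries gave 3 values per group, and 2 in the side comparison.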

Other observations

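Chondromodulin (Lect1, now Cnmd) and chondroadherin (Chad), cartilage genes too low to be tested against the other stroma, were detected in 17 and 20 members. Between the sides Chad was tested and not called (log2 fold change 2.84 ± 1.12, edgeR, Benjamini-Hochberg adjusted p = 0.403), and without replicate 1, or with no filter on low counts, it was called higher against both other stroma groups. Chad had 4, 17 and 38 UMIs in the members of replicates 1, 2 and 3, of 16, 27 and 56 in all kept cells, and 33 of the 59 member UMIs were in 5 of the 18 cells with more Ibsp than Acan. Lect1 had 6, 7 and 28 UMIs, of 53, 47 and 58 in all kept cells. The Ibsp UMIs lay mostly outside the members in replicates 1 and 2 and mostly inside them in replicate 3: the members held 2733, 131 and 2045 of 7608, 631 and 2877 in replicates 1, 2 and 3.

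Between the sides, Thbs4 (a gene of the 6 that chose the members, but of neither pair) stood at 883, 857 and 833 CPM on the Acan/Ibsp side and 1994, 1967 and 1975 CPM on the Tnmd/Scx side of replicates 1, 2 and 3. It is given with no test, since the 6-gene limit used it. Mkx stood at 7.11, 6.97 and 6.59 CPM and 5.15, 6.38 and 4.56 CPM, the latter from 1, 2 and 3 UMIs. The shares in which Comp was detected were 95.3% of members and 82.3% of Thy1/Cd34 cells, and 68.0% and 42.6% with each cell thinned to 1000 UMIs.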
